A study of Mus musculus with 2 samples.

Results

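The genes for the pore-forming subunits of voltage-gated potassium, sodium and calcium channels were examined in a map of open chromatin of the embryonic mouse midbrain. They were taken by symbol from the protein-coding genes of the mm10 annotation: Kcna, Kcnb, Kcnc, Kcnd or Kcnq followed by a number, Scn followed by a number and the letter a, and Cacna1 followed by a letter. Of 21911 named protein-coding genes, 42 met this rule. There were 8 Kcna, 2 Kcnb, 4 Kcnc, 3 Kcnd and 5 Kcnq potassium channel genes, 10 sodium channel genes and 10 calcium channel genes.

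Voltage-gated channels open when the membrane depolarizes. Sodium channels carry the fast upstroke of the action potential, potassium channels repolarize the cell and set the firing pattern, and calcium channels couple the potential to transmitter release, to pacemaking and to gene expression. Neurons gain most of these currents as they mature, and several members of the families are known chiefly from muscle, heart, inner ear, retina or peripheral sensory neurons. Many neuronal channel genes outside the nervous system are held silent by the repressor REST, which binds a DNA element called RE1.

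The assay was DNase-seq, which reads the positions at which DNase I nicks chromatin and so marks accessible DNA as peaks. The tissue was whole midbrain of healthy mouse embryos of the strain B6NCrl at embryonic day 14.5, with males and females pooled. There was 1 group of 2 biological replicates and no treated or mutant group, so the channel genes were set against all protein-coding genes of the same libraries. In the labels each replicate is its own biosample but both have the same donor entry, and the number of pooled embryos is not stated. The spread between the replicates may therefore be technical in part. In bulk tissue, fewer cells with an open site and less opening per cell cannot be told apart.

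Replicate 1 held 710176 peaks with a median value of 6, and replicate 2 held 267958 peaks with a median value of 51. The value of a peak is the authors' own, is at most 150, and was read only within its replicate, as a value or as its percentile rank among all peaks of that replicate. Read depth is unknown. A peak was called shared when intervals of both replicates overlapped by at least 1 bp, which held for 171429 peaks, or 64.0% of the replicate 2 list. As a check of the tissue label, all 7 midbrain regulators and all 5 neuronal genes examined had a shared promoter peak. So did 4 of 8 skeletal muscle genes, 5 of 6 heart genes, 6 of 6 sensory neuron genes, 5 of 5 hair cell genes and 2 of 6 T cell genes. The share over all protein-coding genes was 68.9%. Skeletal muscle (50%) and T cell (33.3%) genes fell below it, and the heart, sensory neuron and hair cell lists lay above it. A promoter peak by itself thus did not separate the midbrain from all of these tissues. Peak values ran from 51 to 111 in replicate 1 and 121 to 141 in replicate 2 for the midbrain list, and from 8 to 29 and 34 to 84 for the heart list. Other lists reached higher. Their highest values in replicates 1 and 2 were 115 and 138 for skeletal muscle and 70 and 134 for T cells. For sensory neurons they were 59 and 138, and for hair cells 69 and 112. Peak value thus set the heart list apart in both replicates, but not the skeletal muscle, T cell and sensory neuron lists. The share of cells of these other kinds in the tissue was not tested.

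Nearly all channel genes had an open promoter in the embryonic midbrain, but with peaks of lower value than is usual for open promoters. A shared peak lay within 1000 bp of an annotated transcript start in 38 of 42 channel genes, or 90.5%, against 15106 of 21911 protein-coding genes, or 68.9%. Replicate 1 alone had a promoter peak at 38 channel genes and replicate 2 alone at 39. All 22 potassium channel genes had a shared promoter peak, as did 7 of 10 sodium channel genes and 9 of 10 calcium channel genes. The 4 without were Scn4a, Scn10a, Scn11a and Cacna1f. Genes were the unit of these counts and are not biological replicates, so the shares stand as a description with no test.

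The strongest shared promoter peak of the 38 genes had a median value of 60.5 in replicate 1 and 121 in replicate 2, against 91 and 137 over all genes with a shared promoter peak. The percentile rank, averaged over replicates, had a median of 95.0 in channel genes and 97.9 in all such genes. Ranked among the strongest promoter peaks of all genes rather than among all peaks, the median channel gene stood at a percentile of 26.3, and 8 of 38 stood above 50. The replicates ordered the 38 genes alike, with a Spearman coefficient of 0.932. That coefficient is a description over 38 genes that share the same 2 libraries.

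**Figure D1:**
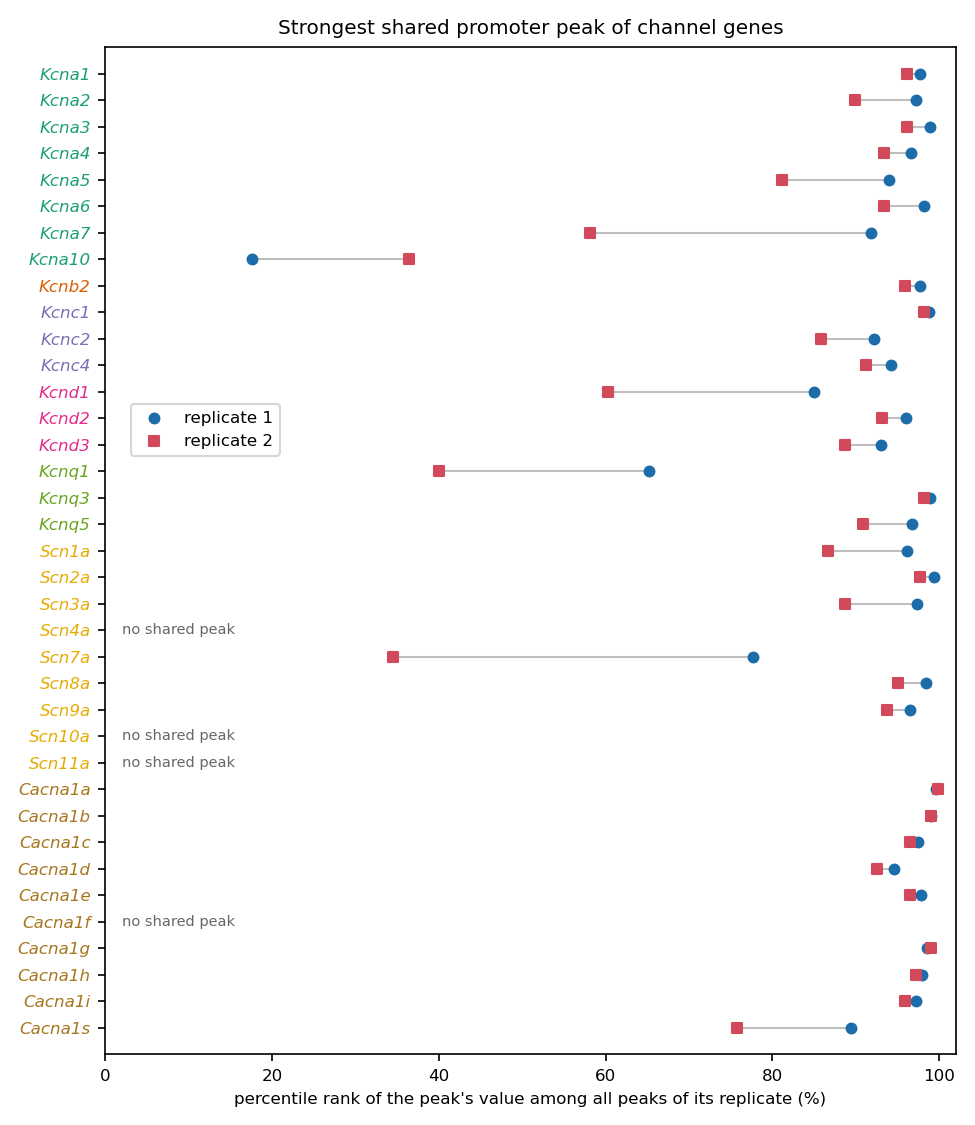
Percentile rank (%) of the strongest shared promoter peak of the channel genes reported here, in replicate 1 (circles) and replicate 2 (squares), by family. Most genes sit near the upper end in both replicates, Kcna10, Kcnq1 and Scn7a lie far lower in at least 1 replicate, and 4 genes had no shared peak.

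Among the Kcna genes, which encode Shaker-type potassium channels, the highest rank was at Kcna3, with a value of 93 in replicate 1 and 133 in replicate 2. Kcna1, whose channel sits along axons beside the nodes of Ranvier, had 67 in replicate 1 and 133 in replicate 2. Kcna6 had 75 in replicate 1 and 121 in replicate 2. These 3 genes had mean ranks from 95.8 to 97.5. Kcna4, which encodes a rapidly inactivating A-type channel, followed with 54 and 121 in replicates 1 and 2, and Kcna2, another axonal channel, with 61 and 110. Lower values were found at Kcna5, known from heart and vascular muscle (37 in replicate 1, 90 in replicate 2), and at Kcna7, known from heart and skeletal muscle (29 and 58). At Kcna10, a channel gene of inner ear hair cells, 6 replicate 1 peaks of value 4 or less lay near the start, and the peak it shared with replicate 2 had values of 3 and 43. Kcna10 thus had the lowest mean rank of all 38 genes, at the 27.0 percentile.

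The Kcnb genes encode the Shab-type delayed rectifiers of neuronal cell bodies and dendrites. The promoter peak of Kcnb2 had a value of 66 in replicate 1 and 132 in replicate 2. Of the Kcnc genes, whose Shaw-type channels allow fast firing, Kcnc1 had 88 in replicate 1 and 142 in replicate 2. Kcnc4 had 38 and 114, and Kcnc2 had 30 and 100. Kcnc1 thus stood above Kcnc2 and Kcnc4 in both replicates.

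The Kcnd genes encode Shal-type channels, which carry the A-type current of dendrites. Kcnd2 had a promoter peak of 49 in replicate 1 and 120 in replicate 2, Kcnd3 had 33 and 107, and Kcnd1 had 17 and 60. Kcnd3 paired these moderate values with the widest accessible region at any channel promoter. Its hotspot, the authors' name for a broader accessible stretch, measured 4004 bp in replicate 1 and 3470 bp in replicate 2. Over all channel genes the widest promoter hotspot had a median of 924.5 bp in 38 genes of replicate 1 and 2160 bp in 39 genes of replicate 2, and its −log10 q stood at the cap of 100 in 28 and 34 of them.

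Kcnq3 and Kcnq5 encode subunits of the neuronal M current, which restrains repetitive firing. Kcnq3 had the strongest promoter peak of the family, with 93 in replicate 1 and 142 in replicate 2. At Kcnq5 the values were 56 and 113. Kcnq1, known from heart and inner ear, ranked far below, with 8 in replicate 1 and 45 in replicate 2.

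All 4 sodium channel genes of the central nervous system were open, and of the 6 known chiefly from elsewhere 3 were open. Scn2a, the channel of early axons, had the strongest sodium channel promoter peak, with 108 in replicate 1 and 140 in replicate 2. Scn8a, whose channel gathers at the axon initial segment and at nodes of Ranvier, had 79 and 128. The promoter peak of Scn3a, the sodium channel gene best known from embryonic brain, had 62 in replicate 1 and 107 in replicate 2, and that of Scn1a, the gene of Dravet syndrome in humans, 50 and 102. Scn9a, best known from peripheral sensory neurons, was close to these, with 53 in replicate 1 and 122 in replicate 2. Scn7a, whose product senses sodium rather than voltage, had 12 and 42.

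No promoter peak was found in either replicate at Scn4a, the sodium channel of skeletal muscle, or at Scn11a, a channel of pain-sensing neurons. At Scn10a, also of pain-sensing neurons, the only promoter peak was in replicate 2, with a value of 30 at a non-coding start 31.3 kb inside the gene. Its rank, the 10.9 percentile, was near the bottom of the replicate 2 list. In these 3 genes the absence concerned the start windows alone. Shared peaks away from any protein-coding start numbered 8 around Scn4a, 11 around Scn10a and 13 around Scn11a.

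The open promoters of calcium channel genes had a median mean rank of 97.2, against 97.9 over all genes with a shared promoter peak, and those of sodium channel genes had 93.0. Cacna1b, which encodes the N-type channel of transmitter release, had 97 in replicate 1 and 145 in replicate 2 at its protein-coding start. Cacna1a, the P/Q-type channel of the same synapses, had 72 and 134 at its protein-coding start. A stronger Cacna1a peak, with 116 and 149, lay at a non-coding start at the 3′ end of the gene, 251 kb from its 5′ end and 23241 bp from the nearest protein-coding start, that of Ier2. The genes of the low-threshold T-type channels, which drive burst firing, were all open: Cacna1g had 82 in replicate 1 and 145 in replicate 2, Cacna1h had 70 and 138, and Cacna1i had 61 and 132.

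Of the L-type genes, Cacna1c had 63 in replicate 1 and 135 in replicate 2, and Cacna1d, which paces dopaminergic neurons of the adult midbrain, had 40 and 118. Cacna1e, the R-type channel gene, had 69 and 135. Cacna1s, the L-type channel of skeletal muscle, had shared promoter peaks at non-coding starts alone, the stronger with 23 and 80, and none at its protein-coding starts. Cacna1f, the retinal L-type channel, had no promoter peak in either replicate.

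By known site of action, 13 genes are known chiefly outside the brain and spinal cord (among them Kcna5, Kcna7, Kcna10, Kcnq1, Scn4a, Scn7a, Scn9a, Scn10a, Scn11a, Cacna1f and Cacna1s). Of these, 9 had a shared promoter peak, with a median value of 16 in replicate 1 and 58 in replicate 2 and a median mean rank of 73.5. All of the other 29 genes had one, with median values of 66 and 132 and a median mean rank of 96.8. Scn9a was the only one of the 13 whose mean rank, 95.1, passed the median of all 38 genes. The share of 69.2% among the 13 was near the 68.9% of all protein-coding genes.

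The promoters differed in sequence as widely as in value. The 5′ ends of the channel genes held from 7 to 122 CpG dinucleotides in the 1000 bp around the start, with a median of 33, against a median of 41 over all genes. The strongest promoter peaks of 3 genes, each 150 bp long, are printed 5′ to 3′ on the strand of the gene and in mm10 coordinates, with CG dinucleotides in capitals. Those of Cacna1b and Kcnq3 lie at the 5′ end and are CpG-rich. That of Scn2a lies at a start 47.9 kb inside the gene and has few CpG.
Cacna1b, chr2:24763176-24763325, minus strand, 21 CpG: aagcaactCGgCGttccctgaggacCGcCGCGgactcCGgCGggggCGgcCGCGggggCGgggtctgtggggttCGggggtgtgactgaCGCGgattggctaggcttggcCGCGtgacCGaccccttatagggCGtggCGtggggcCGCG
Kcnq3, chr15:66286716-66286865, minus strand, 14 CpG: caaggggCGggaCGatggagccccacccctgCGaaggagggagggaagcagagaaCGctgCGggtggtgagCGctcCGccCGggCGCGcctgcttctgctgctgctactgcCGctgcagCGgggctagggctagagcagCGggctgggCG
Scn2a, chr2:65668476-65668625, plus strand, 5 CpG: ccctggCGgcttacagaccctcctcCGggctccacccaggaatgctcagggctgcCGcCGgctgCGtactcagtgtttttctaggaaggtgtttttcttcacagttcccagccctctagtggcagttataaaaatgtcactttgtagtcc
The Scn2a stretch has 5 CpG against 21 in that of Cacna1b, and a G+C share of 54.7% against 74%, yet its value in replicate 1, 108, lies above the 97 of Cacna1b, and in replicate 2 the values are 140 and 145.

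Channel genes with few CpG at the 5′ end were more often open there than other genes of that kind. With fewer than 20 CpG, a shared peak lay at the 5′ end of 8 of 13 channel genes (61.5%), against 1124 of 7643 protein-coding genes (14.7%). The 8 were Kcna1, Kcna10, Kcnc2, Kcnq1, Scn1a, Scn2a, Scn3a and Scn7a. From 20 to 39 CpG the shares were 7 of 11 channel genes (63.6%) and 68.4% of all genes. Above that nearly every gene was open: 2 of 2 channel genes and 95.0% of all genes at 40 to 59 CpG, and 16 of 16 channel genes and 98.2% of all genes at 60 or more. Of the 8, Kcna10, Kcnq1 and Scn7a had weak peaks, as given above. At Kcna1 the 5′ end is a non-coding start. Its strongest peak also touched the window of a protein-coding start cluster 1.57 kb in, with 73 CpG. At Kcnq1 the middle of the start cluster held 57 CpG. The kinds of genes among the 7643 were not examined.

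**Figure D2:**
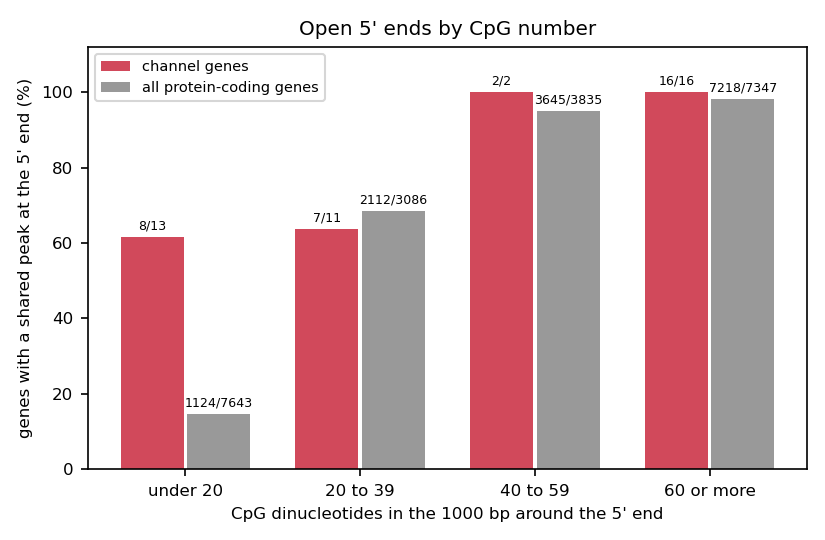
Share (%) of channel genes (left bar of each pair) and of all protein-coding genes (right bar) with a shared peak within 1000 bp of the gene's 5′ end, by the number of CpG dinucleotides in the 1000 bp around it. Counts stand above the bars, and the groups part in the lowest class, at 61.5% and 14.7%.

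Motif letters were counted on both strands, as exact matches, in the 150 bp of each peak. In the 128 shared promoter peaks of channel genes, the SP-type GC box GGGGCGGGG was found in 8.59%, against 9.30% of the 35368 promoter peaks of all genes. Motifs common at housekeeping promoters were scarce: the NRF1 motif GCGCATGCG, the ETS motif CCGGAAGT and the CRE motif TGACGTCA had no match in the 128 peaks, against 1.26%, 2.71% and 1.51% of all promoter peaks. The CCAAT-box motif GCCAATC was found in 1.56% and 4.42%. At these shares 128 peaks would hold only a few matches of each, and many of the peaks share a promoter. The median G+C share of the promoter peaks was 63.3% in channel genes and 60.7% in all genes.

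Many channel genes have several annotated starts, and the most upstream was open in most of them. When starts within 1000 bp of each other were merged, the 42 genes had 126 clusters of starts, of which 59 had a shared peak. The most upstream cluster had one in 33 of 42 genes, and later clusters had one in 26 of 84. The 42 include 10 genes with 1 cluster, each open there. Of the 32 genes with more than 1 cluster, 17 had shared peaks at 2 or more. Neighbouring clusters could count the same peak, as at Kcna1 and Kcna2. Clusters were not counted over all genes. At the 5′ end alone, 33 channel genes (78.6%) were open, against 64.3% of all genes, and at protein-coding starts alone 36 (85.7%), against 67.5%.

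The 5 genes open at some start but not at the 5′ end all encode calcium channels. Over all protein-coding genes, 15106 were open at some start and 14099 at the 5′ end. Calcium channel genes had a median of 8 annotated starts, against 4 in all channel genes and 3 in all genes. The part of start number in this pattern was not tested. Cacna1a, Cacna1c, Cacna1d, Cacna1e and Cacna1s had no shared peak at the annotated 5′ end. The open protein-coding start lay 26.9 kb inside Cacna1a, 87.8 kb inside Cacna1c, 138 kb inside Cacna1d and 158 kb inside Cacna1e. Each of these inner starts was richer in CpG than the 5′ end, where no shared peak was listed. For Cacna1c the inner cluster held 134 CpG and the 5′ cluster 15, and for Cacna1d 98 and 20. Cacna1a had 94 and 9, and Cacna1e had 43 and 40. At Cacna1a and Cacna1e the 5′ cluster held non-coding starts alone. The open inner start of Cacna1a was its only protein-coding cluster.

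Among sodium channel genes, Scn1a and Scn2a were open at starts that lie far apart. Scn1a had a peak of 32 in replicate 1 and 109 in replicate 2 at the 5′ end, and of 50 and 102 at a start 30.8 kb further in, so that each replicate had another start on top. Scn2a had 35 and 100 at the 5′ end, and its strongest peak, 108 and 140, at a start 47.9 kb further in. A Scn2a start 49.7 kb in had 12 and 52. All of these Scn1a and Scn2a clusters were poor in CpG, with 12 to 20. Scn8a had 8 clusters of starts, of which the first, with 79 and 128, and another 66.4 kb in, with 15 and 48, were open.

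**Figure D3:**
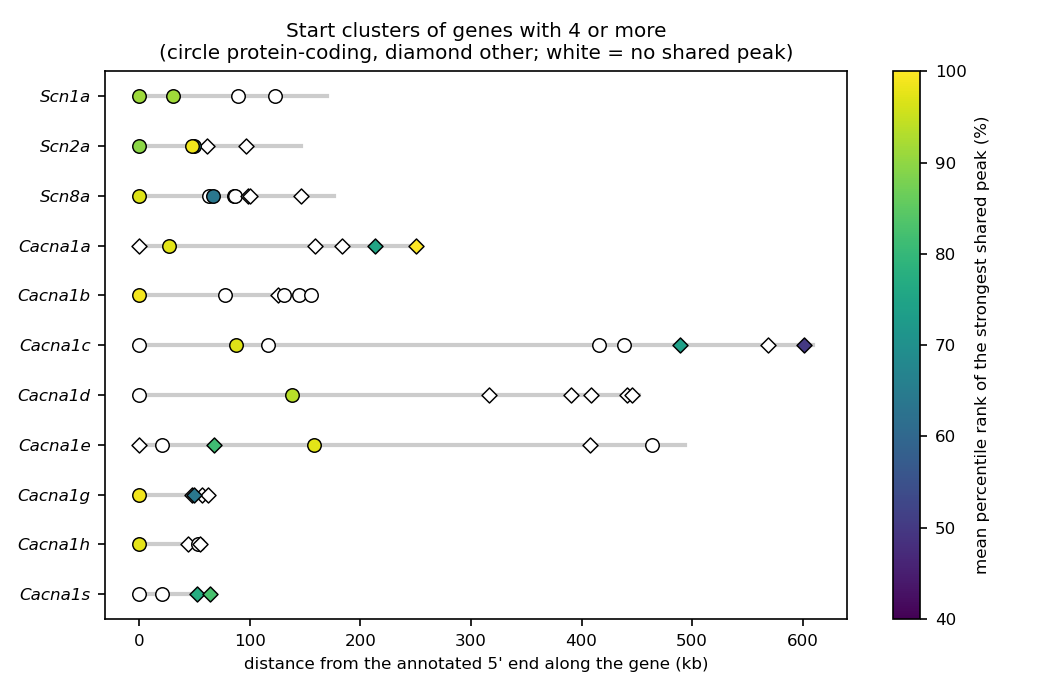
Clusters of annotated starts along channel genes with 4 or more, by distance from the 5′ end (kb). Fill gives the mean percentile rank (%) of the strongest shared peak, white stands for none, circles for protein-coding and diamonds for other transcripts, and grey lines for the gene. In Cacna1a, Cacna1c, Cacna1d and Cacna1e the highest-ranked protein-coding start lies inside the gene, and in Cacna1a it is the only protein-coding cluster.

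Among potassium channel genes, Kcnc1 had an open non-coding start 26.2 kb inside, with 56 in replicate 1 and 114 in replicate 2, under the 88 and 142 at its first start. Kcnc2 had an open protein-coding start 44.2 kb inside, with 14 and 54, and Kcnq5 an open non-coding start 106 kb inside, with 11 and 42.

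Away from protein-coding starts, channel genes had many accessible sites. Peaks at non-coding starts counted as distal here, so some promoter peaks are in both counts, such as that at the 3′ end of Cacna1a. Shared distal peaks, centred more than 1000 bp from any protein-coding start and within the gene or 50 kb of it, had a median of 14 per channel gene and 7 per protein-coding gene. Channel genes are long, with a median length of 94.9 kb against 17.4 kb, so counts were also taken per 100 kb of window, where the medians were 7.59 and 5.02. Within the decile of gene length each belongs to, the median channel gene stood at the 69.4 percentile by distal count, against 49.8 over all genes. By density 29 of 42 channel genes lay above the median of all genes, and 31 lay above the middle of their length decile. Replicate 1 alone gave medians of 56.5 in channel genes and 22 in all genes, and replicate 2 alone gave 23 and 11, so the counts depended on the list while channel genes had more in each.

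Calcium channel genes led by count. Cacna1c had 54 shared distal peaks, Cacna1a 48 and Cacna1e 40. Kcnd3 had 44 and Kcnq1 42, and then came Scn8a with 33. Kcnd2 and Kcnq5 had 28 each, and Cacna1d and Cacna1g had 27 each. Kcnq1 stands out in this list because its promoter peak was among the weakest of the channel genes. At the other end were Scn2a and Kcna7 with 4 each, Kcna4 with 5, and Scn1a and Scn7a with 6 each. With peaks near protein-coding starts included, the Kcna7 window held 18 shared peaks and the Scn2a window 10. In the Kcna7 window most of those near starts lay at starts of other genes.

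Per 100 kb of window the highest densities were at Cacna1g with 16.3 and Kcnc1 with 15.5, and Cacna1h with 13.8 and Kcnd3 with 13.7 were also among the 5 densest. The sparsest were Scn2a with 1.62 and Scn1a with 2.22. Scn2a thus joined the strongest sodium channel promoter peak to the lowest distal density of all 42 genes. By family, the median density was 8.92 in Kcna, 8.35 in Kcnb, 10.6 in Kcnc, 6.03 in Kcnd, 9.18 in Kcnq, 5.58 in Scn and 9.49 in Cacna1. Within deciles of gene length, the median sodium channel gene stood at the 34.6 percentile and the median calcium channel gene at the 86.7 percentile.

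**Figure D4:**
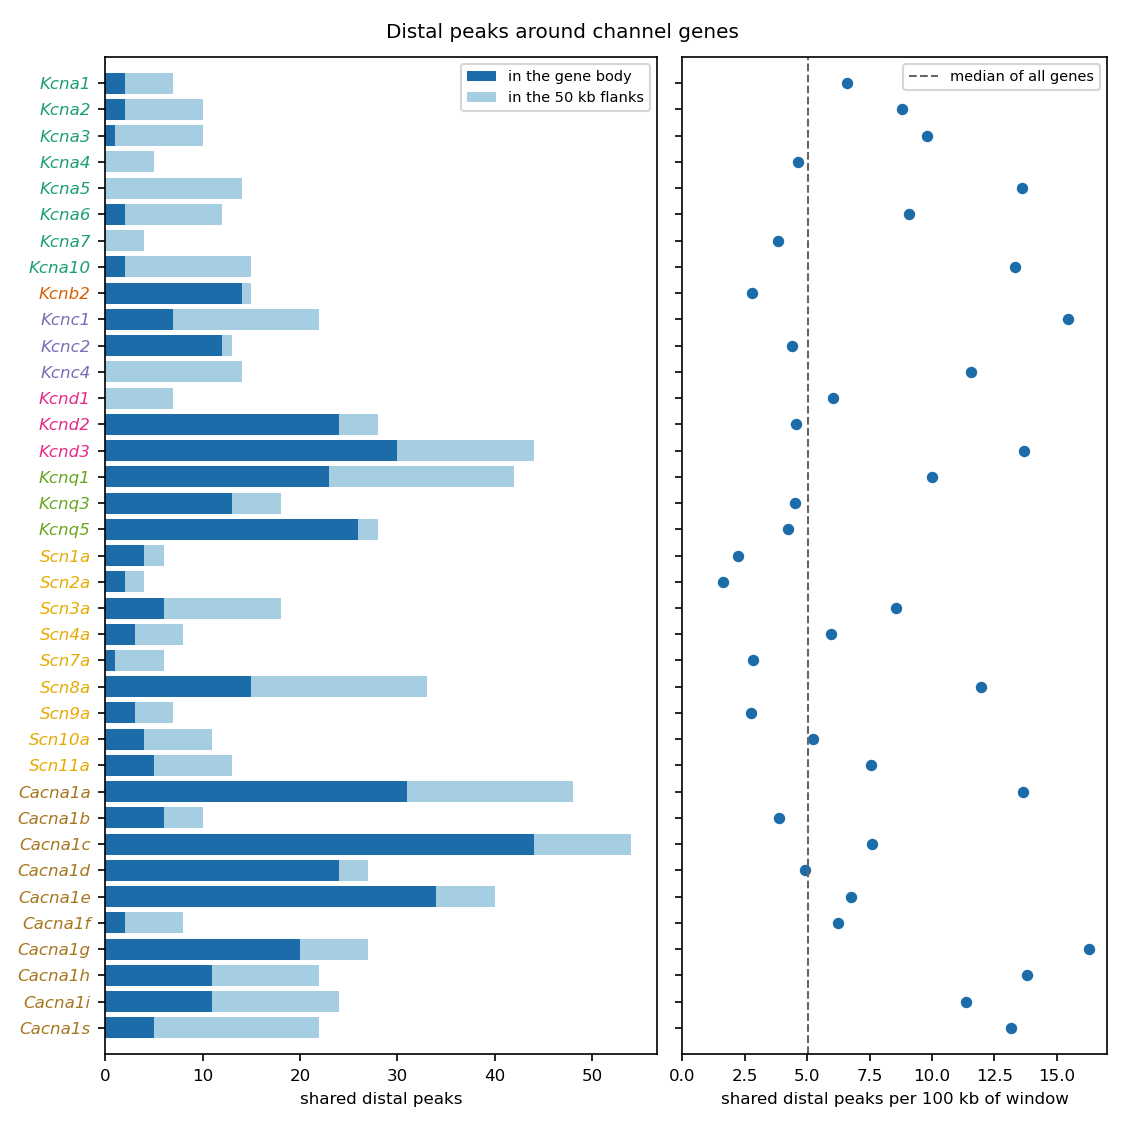
Shared distal peaks of the channel genes reported here, in the gene body (dark) and in the 50 kb on either side (light), and their number per 100 kb of window (points), with the median of all protein-coding genes as a dashed line. Cacna1c has the highest count, 54, and Cacna1g the highest density, 16.3, while Scn1a and Scn2a lie lowest in density.

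The families also differed in where these sites lay. Of 776 pairs of a gene and a distal peak, 388 (50%) were intronic, 34 exonic, 169 upstream and 185 downstream. The intronic share was 61.7% in calcium channel genes and 67.1% in Kcnd genes, but 3.90% in Kcna genes, which are short. Several genes lie side by side, so 23 of the 753 distinct peaks fell in the window of more than 1 channel gene. Counted once over whole gene clusters, density was 11.2 per 100 kb from Kcna3 to Kcna10 on chromosome 3 and 10.1 from Kcna5 to Kcna6 on chromosome 6. It was 6.23 in the cluster of 5 sodium channel genes from Scn3a to Scn7a on chromosome 2.

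**Figure D5:**
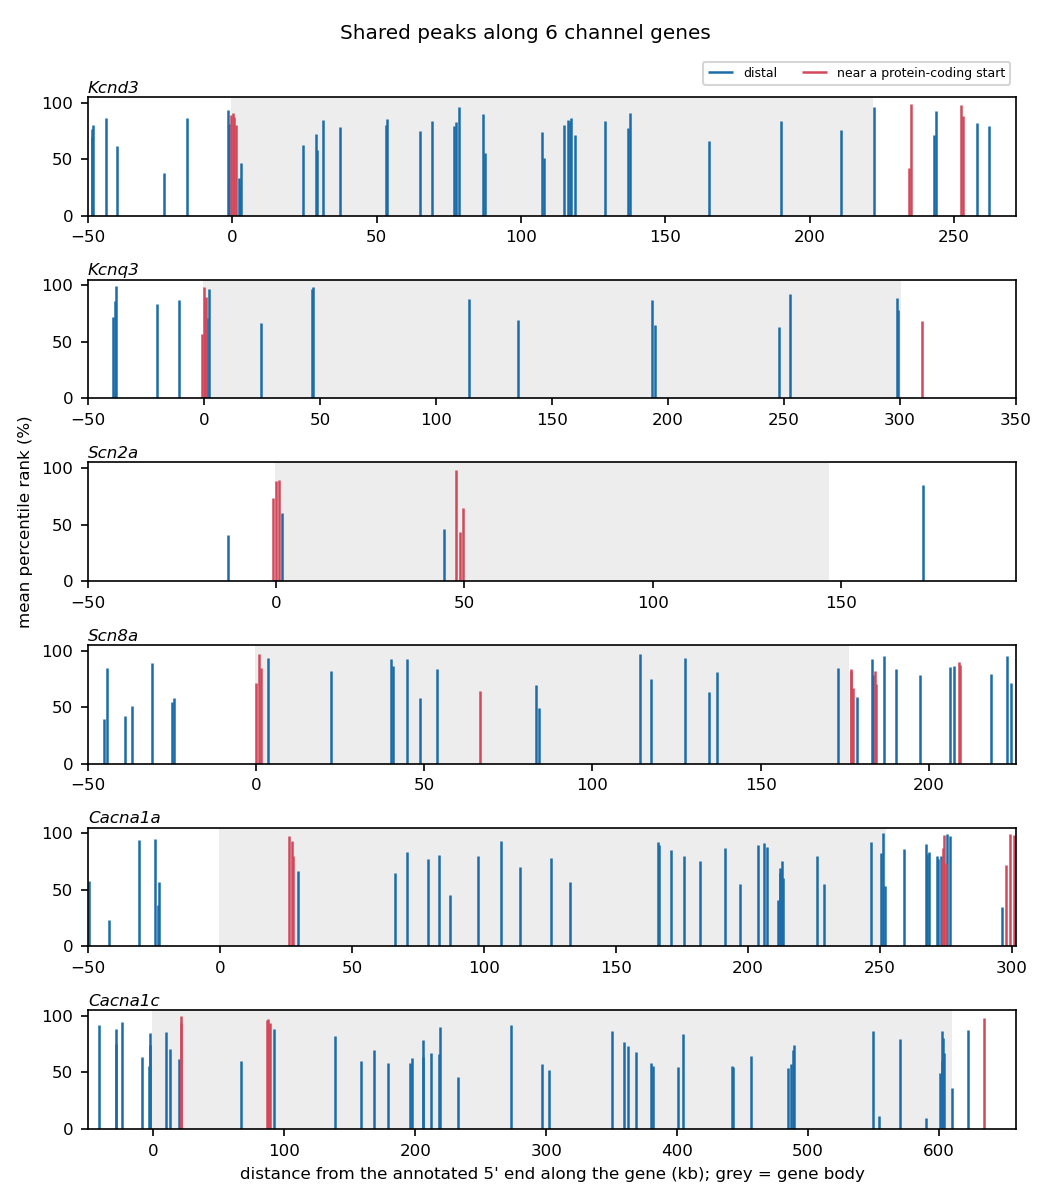
Shared peaks along 6 channel genes, by distance from the annotated 5′ end (kb) and mean percentile rank (%). Grey marks the gene, blue lines distal peaks and red lines peaks near a protein-coding start. Scn2a carries few distal peaks, against rows of them along Cacna1a, Cacna1c and Kcnd3.

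The distal peaks around channel genes had a median mean rank of 76.7, against 72.3 over all distal shared peaks. The highest was the Cacna1a peak at the 3′ end described above, followed by a peak downstream of Cacna1a with 112 in replicate 1 and 145 in replicate 2, which lay only 1239 bp from the start of Ier2. Kcnq3 had a peak 38.0 kb upstream with 109 and 144, and an intronic peak 47191 bp inside with 104 and 143. Cacna1g had an intronic peak with 108 and 142. Also among the 10 highest was a peak in the Kcna7 window (98 and 135), which lay 1478 bp from the start of Ppfia3. Peaks close to another gene's start were not assigned to either gene by these data.

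The intronic peaks of Kcnq3 and Cacna1g are printed because they are the highest distal peaks in introns of the channel genes. They run 5′ to 3′ on the strand of the gene, in mm10 coordinates, with motif matches in capitals.
Kcnq3, intron, chr15:66239376-66239525, minus strand: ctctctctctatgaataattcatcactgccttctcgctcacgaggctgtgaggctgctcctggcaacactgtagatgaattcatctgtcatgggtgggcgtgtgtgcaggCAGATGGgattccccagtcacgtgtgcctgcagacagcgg
Cacna1g, intron, chr11:94468896-94469045, minus strand: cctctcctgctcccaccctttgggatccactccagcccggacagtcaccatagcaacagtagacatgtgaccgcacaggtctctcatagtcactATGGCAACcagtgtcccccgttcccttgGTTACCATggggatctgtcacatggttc
The capitals mark the E-box letters CAGATGG in the Kcnq3 peak and 2 matches to GTTNCCAT, on opposite strands, in the Cacna1g peak. GTTNCCAT is a core of the X-box bound by RFX factors and was chosen after the letters of this Cacna1g peak were read.

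Motif counts in distal peaks left out peaks that overlapped a promoter window of any gene, which left 708 peaks around channel genes and 135881 in all. The RFX motif GTTGCCATG was found in 26 of the 708, or 3.67%, against 1.50% of all. The 26 peaks lay around 17 channel genes, with 4 at Cacna1e and 3 at Cacna1i. The AP-1 motif TGANTCA was found in 3.11% of distal peaks of channel genes and 5.12% of all, and the E-box CAGCTG in 12.7% and 15.2%. The distal peaks of channel genes had a median G+C share of 52.7%, against 49.3%. The part of base composition in these shares was not tested.

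RE1 was searched on both strands of chromosomes 1 to 19, X and Y as TTCAGCACC, any 2 bases, then GGACAGCGC, and places matching at 15 or more of the 18 letters were kept. Channel gene windows held 20 such places, of which 7 overlapped shared peaks (35%), against 500 of 2144 over the genome (23.3%). At 16 or more letters it was 4 of 9 in channel gene windows and 46.5% of 609 over the genome. The 4 are printed 5′ to 3′ on the strand of the match, in mm10 coordinates, with the letters that match RE1 in capitals.
Scn2a, 798 bp upstream of the 5′ end, chr2:65619964-65619983, plus strand: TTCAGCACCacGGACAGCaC
Scn10a, intron, chr9:119706899-119706918, minus strand: TTCAGCACCacGGACAGaGC
Cacna1a, intron, chr8:84471460-84471479, plus strand: TTCAGCACgctGGACAGCaC
Cacna1i, 9411 bp upstream, chr15:80277818-80277837, plus strand: aTCAGCACCacGGACAGCGa
The Scn2a place lay in a peak of 17 in replicate 1 and 62 in replicate 2, under the 35 and 100 at the 5′ end of Scn2a and above the 12 and 52 at its start 49.7 kb in. The Scn10a place, also in the window of Scn11a, lay in a peak of 27 and 84. For Cacna1a the peak had 24 and 73, and for Cacna1i 23 and 73.

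The other places with 16 or 17 matching letters were in no shared peak. A place in an intron of Cacna1h was in a replicate 2 peak with a value of 55, and a place upstream of Kcna10 was in a replicate 1 peak with a value of 10. A further place in Scn10a, and those near Cacna1f and Kcnd1, were in no peak of either replicate. At 15 letters, shared peaks overlapped places in introns of Cacna1a, Cacna1b and Cacna1e. The Cacna1b place overlapped the replicate 2 interval only in part and lay in no replicate 1 peak. A match gives letters and not binding. Rest itself and the 4 genes of its partner proteins examined (Kdm1a, Rcor1, Rcor2 and Sin3a) had shared promoter peaks, with 60 in replicate 1 and 133 in replicate 2 at Rest.

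Related channel and companion subunit genes were counted in the same way, beside the 68.9% of all protein-coding genes with a shared promoter peak. All 3 Kv beta genes had a shared promoter peak, led by Kcnab2 with 120 in replicate 1 and 147 in replicate 2 and Kcnab3 with 77 and 127. So did all 6 genes of proteins that join Shal-type channels, led by Dpp6 (81 and 134) and Kcnip1 (57 and 129). All 10 genes of the electrically silent Kv subunits were open but weaker, with medians of 29 and 92, led by Kcnf1 (81 and 133) and Kcnv1 (46 and 111). Of the 8 Kcnh genes, which encode pore-forming potassium channels of the ether-a-go-go type, 7 were open (87.5%), led by Kcnh2 (111 and 146) and Kcnh1 (77 and 140), and Kcnh6 had a promoter peak in replicate 2 alone. Of 4 Kcne genes 1 (25%) had a shared promoter peak, Kcne3, with 22 and 95, a share below that of all genes.

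The sodium channel beta subunit genes were open in 4 of 4, led by Scn3b (83 and 135) and Scn4b (34 and 110). All 8 genes of proteins that anchor or modulate sodium channels were open, led by Fgf12 (111 and 146) and Nrcam (85 and 138). Ank3, whose product ankyrin-G gathers sodium channels at the axon initial segment, had 92 shared distal peaks, more than any of the 42 channel genes. Ank3 is 629 kb long, and per 100 kb of window it had 12.6, below the 16.3 of Cacna1g. All 4 calcium channel beta subunit genes were open, led by Cacnb1 (76 and 141) and Cacnb3 (95 and 135). All 4 alpha2delta genes were open too, led by Cacna2d2 (59 and 132) and Cacna2d3 (56 and 128). Cacna2d3 had 77 distal peaks, or 8.40 per 100 kb of window. Of 8 Cacng genes 6 were open (75%), near the share of all genes, led by Cacng4 (80 and 147) and Cacng7 (73 and 132). The exceptions were Cacng1, the subunit of the skeletal muscle channel, and Cacng6.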

How the data were processed

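DNase-seq of embryonic midbrain was analysed in 2 biological replicates of 1 group, numbered as in GEO. The files are on mm10, per the labels, with peaks and hotspots listed for each replicate. What aligner and peak caller were used is not given in the sources used here. The authors' peaks carry a signal value, a whole number of at most 150 that is not scaled to a common depth, and their deposited hotspots carry −log10 q, capped at 100. Read depth is unknown.

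Annotation was GENCODE mouse release M21, and sequence was read from RefSeq GRCm38.p6, the assembly also called mm10. Where a symbol had several loci, the longest was kept. A shared peak was given its replicate 2 interval, and open promoters were those with such a peak touching the window of 1000 bp each way from a transcript start. Ranks were taken over all peaks of a replicate. The programs were checked on simulated data. Tools were samtools 1.23.1, pysam 0.24.0, Python 3.11.15, matplotlib 3.10.9, scipy 1.17.1, pandas 2.3.3 and numpy 2.4.6.

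Named in full were the 3 members per family with the highest-ranked promoter peak, members without one, the 10 with most distal peaks, the 5 densest, the 10 highest distal peaks, members with RE1 matches in peaks and the 2 highest-ranked genes per companion list, and values of some genes and sequences that this rule takes are not reported here. Members, lists and motifs were chosen with earlier results of these data known. Alternatives changed the replicate, the overlap, the peak threshold, the window and the kind of start. Kcne5 and Drgx, a sensory neuron gene, were not found under their names in the annotation used.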

Additional observations from a re-analysis of the deposited data

How the results depend on the processing

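The number of channel genes with an open promoter stayed between 33 and 39 under every alternative, and their share each time was above that of all genes, which ranged from 64.3% to 75.8%. Leaving out a replicate gave 38 to 39 channel genes and 15872 to 16611 protein-coding genes. It gave medians of 23 to 56.5 distal peaks per channel gene and 11 to 22 per protein-coding gene, with the higher values from replicate 1 alone, and a median promoter rank of 93.4 to 97.2. Ranked among the strongest promoter peaks of all genes, the channel gene median was 26.3 in place of 95.0, since that rank leaves out the weaker peaks. Requiring 75 bp of overlap removed 2 genes, Kcna10 among them. Requiring peaks above the replicate median removed 4, among them Kcna10, Kcnq1 and Scn7a. Windows of 500 bp removed Kcnq1, and windows of 2000 bp added Cacna1f. The peak that added Cacna1f, with 87 in replicate 1 and 136 in replicate 2, lay upstream of it. That peak was 106 bp from a protein-coding start of another gene, Ccdc22. Counting genes with promoter peaks in both replicates that need not overlap was chosen after seeing the data and gave 38 channel genes. No paired analysis was possible because there was only 1 group. With 2 replicates of unknown depth, a weak site missing from a list cannot be told apart from a closed one.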
